A study of Mus musculus with 384 samples.

Results

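Mixed-lineage granulocyte/macrophage progenitors (GMPs) are described here as single wells in which transcripts of both Irf8 and Gfi1 were read. The wells were chosen by 2 measured values: a level of at least 20 CPM for Irf8 and for Gfi1, where CPM is a gene's reads divided by all reads on genes in that well and scaled to 1e6. Only wells of sufficient depth were considered, which means 200000 or more reads on genes and 2000 or more genes with a read. Of 384 wells, 316 met the depth limits and 66 held both transcripts. Another 83 wells held Irf8 only, 146 held Gfi1 only and 21 held neither at that level. Because Irf8 and Gfi1 chose the wells, their own levels are given as a description and were left out of every test.

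The study sorted single GMPs from mouse bone marrow on CD34, c-Kit and Fc gamma receptor, without lineage markers or Sca-1, into plates at 1 cell per well. Its 4 sets of 96 wells are BCR-ABL replicates 1, 2 and 4 and 1 Control set, all given as strain C57Bl/6. BCR-ABL mice carry the transgenes Scl-tTA and TRE-BCR/ABL, so the oncogene is driven in Scl-expressing blood stem and progenitor cells once doxycycline is withdrawn. Doxycycline (20 mg/L in drinking water) was withdrawn at 5 weeks of age, with analysis 5 to 6 weeks later. The same doxycycline dose, age and interval are given for the Control wells. The labels do not give the genotype of the Control mice or say whether the sets are separate animals, so p-values below measure no more than how far these sets differ, which may in part be technical.

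Irf8 is a transcription factor needed for monocytes and dendritic cells, and Gfi1 is a zinc finger repressor needed for neutrophils. In GMPs the factors are known to act against each other, and cells that carry transcripts of both have been described as an intermediate before commitment to either fate. BCR-ABL is the fusion kinase of chronic myeloid leukaemia and signals in part through STAT5.

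The promoter windows of the 2 genes that chose the wells are shown because the factors they encode, and STAT factors downstream of BCR-ABL, are known to bind short motifs of the kind marked in them. Each window runs from 250 bases before to 50 after a RefSeq start on GRCm38.p6, 5′ to 3′ on the gene's strand, and capitals mark matches on either strand to AATC (the core of GFI1 sites), TTCNNNGAA (the STAT motif) or the interferon-stimulated response element (ISRE), which IRF factors bind. For each gene, the window of 2 listed that starts nearest the 5′ end of the GENCODE gene was taken.
Irf8, chr8:120736108-120736407, plus strand: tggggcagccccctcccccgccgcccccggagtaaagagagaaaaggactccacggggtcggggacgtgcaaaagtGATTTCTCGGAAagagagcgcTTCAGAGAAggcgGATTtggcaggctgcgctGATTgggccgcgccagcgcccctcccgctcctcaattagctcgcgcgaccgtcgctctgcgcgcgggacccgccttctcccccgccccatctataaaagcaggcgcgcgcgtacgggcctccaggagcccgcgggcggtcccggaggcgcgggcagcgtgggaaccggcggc
Gfi1, chr5:107725756-107726055, minus strand: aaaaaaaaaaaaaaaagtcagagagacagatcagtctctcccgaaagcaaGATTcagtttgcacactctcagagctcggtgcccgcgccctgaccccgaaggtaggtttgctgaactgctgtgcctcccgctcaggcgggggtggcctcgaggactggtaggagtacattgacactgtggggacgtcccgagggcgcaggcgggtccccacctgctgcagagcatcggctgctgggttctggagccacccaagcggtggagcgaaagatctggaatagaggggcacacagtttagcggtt
The Irf8 window held 3 matches to AATC, all on the opposite strand, and 2 matches to TTCNNNGAA, of which the first overlaps an AATC match by 1 base. The Gfi1 window held 1 match to AATC and 0 to TTCNNNGAA. Neither window held the ISRE. Of 32851 windows of this length, 73.1% held AATC at least once and 22.6% at least 3 times, 8.3% held TTCNNNGAA and 3.44% held the ISRE. A match is a run of letters and not evidence of binding.

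Wells with both transcripts were found in every set. They were 11 of 72 kept wells in BCR-ABL replicate 1 (15.3%, exact 95% interval 7.88 to 25.7), 18 of 59 in replicate 2 (30.5%, 19.2 to 43.9), 12 of 91 in replicate 4 (13.2%, 7 to 21.9) and 25 of 94 in the Control set (26.6%, 18 to 36.7). The mean over the BCR-ABL sets was 19.7% ± 9.46 (SD, n = 3), and the Control value lay inside the range of those sets. With 3 sets against 1 an exact permutation test cannot go below 0.25, so none was run. The intervals cover the sampling of wells within a set and not variation between sets. The SMART-seq2 libraries were made without molecular identifiers. At a level of 50 CPM for both genes the Control share stood 4.23 points above the BCR-ABL mean, at 20 CPM 6.94 points, and at 100 CPM the sign turned, with BCR-ABL 0.0955 points higher. The gap at 20 CPM also depended on single sets: Control minus BCR-ABL was 4.75 points without replicate 1, 12.4 without replicate 2 and 3.70 without replicate 4.

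What the members were a fraction of differed much more between the sets. In the Control set 77 wells held Irf8 and 32.5% of them also held Gfi1. In BCR-ABL replicates 1, 2 and 4 the wells with Irf8 numbered 26, 33 and 13, of which 42.3%, 54.6% and 92.3% also held Gfi1. Seen from the other gene, 67.6% of the 37 Control wells with Gfi1 held Irf8, against 20.8%, 46.2% and 14.5% of 53, 39 and 83 wells in the BCR-ABL sets. Multiplying each set's 2 margins gives 19.1, 21.8, 11.9 and 30.3 wells with both, beside 11, 18, 12 and 25 observed. BCR-ABL replicate 4 held 1 well with Irf8 alone, so it has no Irf8 only sum below. That well is counted among the 83 Irf8 only wells. The replicate's other sums enter the joint fit, and its members are set beside Irf8 only sums of the other sets.

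Most members held more Irf8 than Gfi1. Irf8 had a median of 402 CPM in the members of BCR-ABL replicate 1 (range over all 66 members 28.6 to 2298), 296 in replicate 2, 112 in replicate 4 and 1014 in the Control set. The Gfi1 medians were 50.4, 101, 73.5 and 61.1 CPM (range over all members 20.8 to 921). Irf8 exceeded Gfi1 in 54 of 66 members, by more than 4-fold in 40, while Gfi1 exceeded Irf8 by more than 4-fold in 2 and the remaining 24 lay within 4-fold. The median log2 ratio of Irf8 to Gfi1 was 2.81, 1.53, 0.84 and 4.13 in the 4 sets in the same order. Irf8 only wells had Irf8 medians of 569, 743 and 996 CPM in replicates 1 and 2 and Control, so the Control members were not lower. Gfi1 only wells had Gfi1 medians of 159, 179, 181 and 180 CPM in the 4 sets, above the members each time. Pooled over sets of unlike make-up, wells of a single gene had a median of 910 CPM of Irf8 or 177 CPM of Gfi1. Over all members the pooled medians were 487 and 66 CPM.

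**Figure D1:**
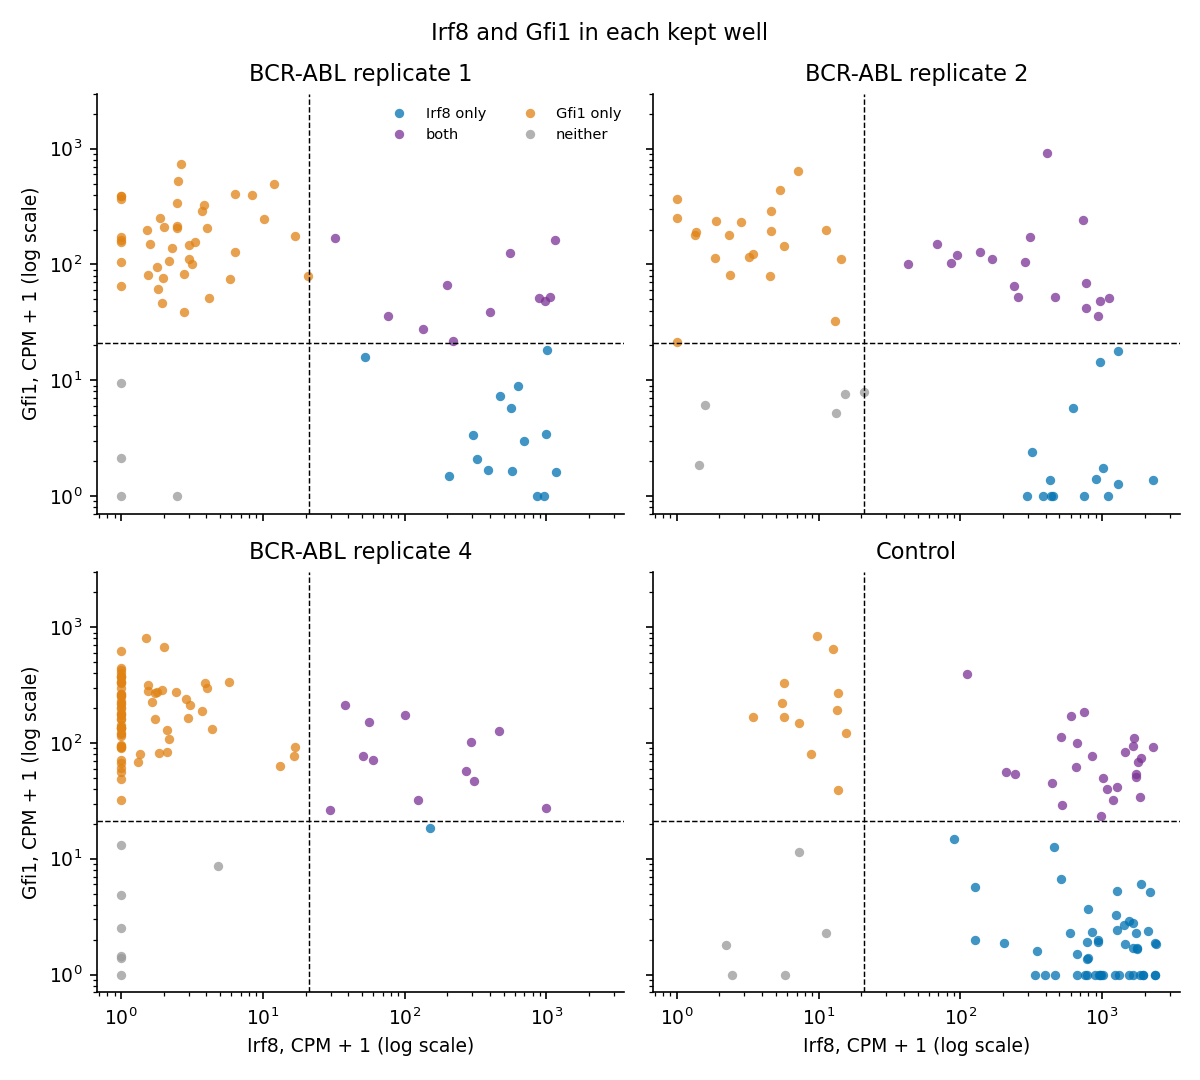
Irf8 (x axis) and Gfi1 (y axis) in each of the 316 kept wells, as CPM + 1 on log axes, 1 panel per set, coloured by class. Dashed lines mark 20 CPM. The 66 wells with both fill the upper right of each panel, and the Control members lie to the right of most BCR-ABL members.

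Few members sat close to the limit. The lowest Irf8 levels inside it were 28.6, 31.3 and 37.2 CPM and the highest outside it, in wells with Gfi1, ended just under 20 CPM, with 15.9 and 15.7 next. For Gfi1 the lowest inside were 20.8, 22.4 and 25.6 CPM and the highest outside were 17.4, 17.2 and 16.9. Levels between 20 and 30 CPM were found in 1 member for Irf8 and 6 for Gfi1, and 14 wells with Gfi1 held 10 to 20 CPM of Irf8 while 7 wells with Irf8 held 10 to 20 CPM of Gfi1. The fewest reads behind a member were 29 for Irf8 and 11 for Gfi1 (medians 921.5 and 120).

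The members carried the genes of the sort gate. Kit, the stem cell factor receptor, reached 20 CPM in 65 of 66 members, Cd34 in 58 and the Fc receptor gene Fcgr3 in all 66. Mpo and Elane, which encode the primary granule enzymes myeloperoxidase and neutrophil elastase, reached it in all 66, with medians of 27630 and 14420 CPM. Markers of other cells were mixed, and their part in the results was not tested. In the lymphoid list 11 of 16 genes reached 20 CPM in no member, among them the B cell genes Cd79a and Pax5, while Cd79b, the partner chain of Cd79a, did so in 53 of 66 members and Ighm in 48. Cd79b also did so in 70 of 83 wells with Irf8 only and 86 of 146 with Gfi1 only. In the macrophage list 8 of 12 genes, C1qa among them, reached 20 CPM in no member, and Adgre1 and Vcam1 did so in 9 members each. In the erythroid and megakaryocyte list 7 of 17, with Gata1 and Hba-a1, did so in no member, and Car2 in 17 and Apoe in 16. The endothelial gene Cdh5 was at this level in no member (6 of 9 genes of its list), and Pdgfrb was in 9. Of 8 eosinophil genes 5, with Epx, were at this level in no member, and Siglecf was in 21. Over the genes of each list with enough counts to test, the summed level in members ran from 124.1 to 555.1 CPM for 6 lymphoid genes, 3.15 to 85.2 for 4 macrophage genes, 29.9 to 86.4 for 12 erythroid and megakaryocyte genes, 0.384 to 44 for 3 stroma and endothelium genes and 9.63 to 62.2 for 4 eosinophil genes. The Gfi1 only sums of these lists were 63.4 to 126.3, 44.4 to 110.6, 105 to 340.5, 3.75 to 37.3 and 75.5 to 1814 CPM, and the Irf8 only sums 130.2 to 786.8, 10.2 to 29.8, 30.1 to 34.8, 0.158 to 12.3 and 9.47 to 29.1 CPM.

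Genes of both lineage lists were read inside single members, and also inside wells of the single classes. Of 22 monocyte genes fixed as a list, a member held a median of 13 at 20 CPM or more (range 8 to 19), and of 16 primary granule genes it held a median of 14 (range 11 to 16). Wells with Gfi1 only held a median of 9 monocyte genes and 15 primary granule genes, and wells with Irf8 only held 15 and 14. Holding genes of both lists thus did not set members apart from Irf8 only wells. In replicates 1 and 2 and Control the monocyte medians were 14, 12 and 15 in members and 14, 14 and 15 in Irf8 only wells. Ly86, a monocyte surface gene, showed the split between wells most plainly: it reached 20 CPM in 48 of 66 members, 75 of 83 wells with Irf8 only and 6 of 146 with Gfi1 only. Cebpe, the factor of neutrophil granule genes, did so in 23 members, 21 wells with Irf8 only and 133 with Gfi1 only.

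Measures of RNA content moved with the classes in some sets. Members had a median of 0.192% spike-in reads in BCR-ABL replicate 1, where wells with Irf8 only had 0.321% and wells with Gfi1 only 0.462%, and a lower spike-in share goes with more cell RNA in the well. In the Control set the medians were 0.483%, 0.468% and 0.727%, so members there did not stand below the Irf8 only wells. In BCR-ABL replicate 2 they were 0.344%, 0.297% and 0.802%, and in replicate 4 they were 0.270% in members and 0.481% in Gfi1 only wells. After each well was thinned to 200000 reads, members had a median of 8200, 7781, 8198 and 7429 genes with a read in the 4 sets, against 7179, 6804, 7578 and 7342 in wells with Gfi1 only. Irf8 only wells had 8055, 7929 and 7314 in replicates 1 and 2 and Control, which is below the members in replicate 1 and Control and above them in replicate 2. A well with 2 cells could also hold both transcripts. No doublet caller was run, and the part of RNA content in the results below was not tested beyond leaving out 15 of the 66 members. These 15 members of low spike-in share lay below the 10th percentile of that share among all kept wells of their own set. The effect of leaving them out is given with each count.

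Members were compared with each single class on counts summed over wells, separately for each set and class, with set as a term (11 sums, edgeR quasi-likelihood test, Benjamini-Hochberg adjusted p under 0.05). Wells were divided by Irf8 and Gfi1, so any gene that goes with either gene in GMPs is bound to follow the division to some degree. Many genes named below were picked by small p, which favours groups that do not overlap. The share of all genes without overlap was not counted.

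Against wells with Irf8 only, no gene passed the test. Of 15580 genes tested by edgeR, 0 had an adjusted p under 0.05 (0% of genes). At an unadjusted p under 0.05 there were 275 genes (1.77%) with more and 262 (1.68%) with less in members. These 537 genes are fewer than that limit marks by chance when no gene differs. DESeq2 called 93 genes, and limma voom and thinned wells (0% of 11788 genes) called 0. Without the 15 members of low spike-in share edgeR also called 0.

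Per3, a circadian clock gene that stood among the fixed fate genes, lay between the single classes. It stood at 19, 37.4 and 57.6 CPM in members of BCR-ABL replicates 1, 2 and 4 and at 24.2 CPM in the Control members. Irf8 only wells had 9.52 and 8.10 CPM in replicates 1 and 2 and 12.9 CPM in Control, so the members lay above them without overlap (log2 difference 1.51, SE 0.37, edgeR unadjusted p = 0.0038, adjusted p = 1). Wells with Gfi1 only held still more Per3, 46.6 to 105 CPM.

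Of the 16 primary granule genes, 14 lay above the Irf8 only wells and 2 below, with a median log2 difference of 0.22 beside -0.02 over all genes, and 2 of them had an unadjusted p under 0.05. Ctsg, which encodes the granule protease cathepsin G, stood at 8619, 9542, 9686 and 7071 CPM in the members and at 8328, 6850 and 6357 CPM in the Irf8 only wells of replicates 1 and 2 and Control. Members were higher in each of those 3 sets (log2 difference 0.24, SE 0.08, edgeR unadjusted p = 0.021, adjusted p = 1). Prss57, another neutrophil serine protease, had a log2 difference of 0.53 (SE 0.19, edgeR adjusted p = 1), and Csf3r, the receptor for the neutrophil growth factor G-CSF, one of 0.47 (SE 0.17, adjusted p = 1). Myc, the proliferation factor, stood at 479, 665, 470 and 480 CPM in members and at 445, 420 and 318 CPM in Irf8 only wells (log2 difference 0.44, SE 0.12, edgeR adjusted p = 1).

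Of 21 monocyte genes tested, 19 lay below the Irf8 only wells, with a median of -0.32, and 0 had an unadjusted p under 0.05. Klf4, a zinc finger factor of monocyte differentiation, had 4.72, 0.395, 0 and 10.3 CPM in the members and 16.4, 21.8 and 22.1 CPM in the Irf8 only wells. It reached 20 CPM in 6 of 66 members and 23 of 83 Irf8 only wells, and 1 well held 24.8% of the members' Klf4 reads (log2 difference -2.48, SE 1.31, edgeR adjusted p = 1). Csf1r, the receptor for the monocyte growth factor M-CSF, was close between the classes, at 167, 162, 106 and 291 CPM in members and 166, 179 and 368 CPM in Irf8 only wells. The DNA replication list (S phase) had 18 of 24 genes below and the mitosis list (G2/M) 20 of 24 above the Irf8 only wells, with medians of -0.10 and 0.18 and 0 genes at an unadjusted p under 0.05 in either list.

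Among genes with 1 sign in every set and a read in at least 25% of the wells of a class, the 5 of smallest p in each direction against Irf8 only wells belong to none of the fixed lists. Nptn, an immunoglobulin superfamily adhesion gene, stood at 107, 88.5, 84 and 112 CPM in members and 167, 131 and 165 CPM in Irf8 only wells (log2 difference -0.60, SE 0.10, edgeR adjusted p = 1). Zwilch, a gene of the mitotic checkpoint at kinetochores, stood at 56.5, 71, 64.5 and 73.5 CPM against 41.7, 38.7 and 45. The groups did not overlap for either gene, which the choice by small p and 1 sign in every set favours. Igf1r, the receptor for insulin-like growth factor 1, stood at 56.3, 47.2, 68.7 and 31.6 CPM in members and at 27.3, 24.7 and 17.9 in Irf8 only wells (log2 difference 1.03, SE 0.24, edgeR adjusted p = 1). Ubn1, Hnmt and Prkd2 were the other genes higher by this rule, with log2 differences of 0.63, 0.90 and 1.64, and Mansc1, Inpp5f, Sec22a and Smurf2 the other genes lower, with -1.62, -1.66, -0.89 and -1.30. None passed the adjusted threshold.

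Against wells with Gfi1 only, Emb and Milr1 were higher in the members and passed the test. Most monocyte genes stood above the Gfi1 only wells and most primary granule and basophil genes below, while late granule genes were divided. Of 15580 genes, 2 were called by edgeR (0.0128%), both higher, and at an unadjusted p under 0.05 there were 1146 genes (7.36%) with more and 1159 (7.44%) with less in members. With each well thinned to 200000 reads, so that wells weigh equally, 137 of 11788 genes (1.16%) were higher and 111 (0.942%) lower. DESeq2 called 1376 and limma voom 93. Leaving out any 1 set ended both calls (log2 differences 1.04 to 1.21 for Emb and 2.33 to 2.68 for Milr1). At a level of 100 CPM neither gene was called (0.94 and 0.85). Without the 15 members of low spike-in share 1 gene, Milr1, was called.

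Emb encodes embigin, a cell surface glycoprotein of early myeloid cells, and is in the monocyte list. It stood at 1141, 1036 and 902 CPM in members of BCR-ABL replicates 1, 2 and 4 and at 1447 CPM in the Control members. The Gfi1 only wells of the same sets had 486, 575, 449 and 565 CPM, so every member sum lay above every Gfi1 only sum (log2 difference 1.11, SE 0.09, edgeR adjusted p = 0.0237). Irf8 only wells had 1277, 1197 and 1501 CPM, close to the members of the same set each time (members minus Irf8 only -0.16, SE 0.10, edgeR adjusted p = 1).

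Milr1 encodes an inhibitory receptor known from mast cells. Members had 133, 70.3, 92.7 and 114 CPM, and Gfi1 only wells had 16.6, 16.4, 12.9 and 29 CPM, with no overlap (log2 difference 2.50, SE 0.21, edgeR adjusted p = 0.0237). It reached 20 CPM in 55 of 66 members, 75 of 83 Irf8 only wells and 29 of 146 Gfi1 only wells. Other mast cell genes were not higher with it, as given below.

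Of 21 monocyte genes tested, 20 lay above the Gfi1 only wells, with a median log2 difference of 1.17 beside -0.05 over all genes. Unadjusted p was under 0.05 for 11, and 6 were called in thinned wells: Ly86, Emb, Csf1r, Ctss, Ccr2 and Tifab. Ccr2, the chemokine receptor by which monocytes leave the marrow, stood at 210, 171, 189 and 174 CPM in members and at 43, 33.5, 73.1 and 8.98 CPM in Gfi1 only wells. The groups did not overlap (log2 difference 2.44, SE 0.44, edgeR adjusted p = 0.101, in thinned wells 0.00911). Csf1r had 47.8, 42.2, 41 and 16.8 CPM in Gfi1 only wells, below every member sum (2.15, SE 0.45, edgeR adjusted p = 0.113, in thinned wells 0.0267). Ly86 stood at 128, 131, 24.5 and 290 CPM in members and 12.4, 13.1, 0.127 and 2.62 CPM in Gfi1 only wells (4.72, SE 0.81, edgeR adjusted p = 0.0993, in thinned wells 0.0233). Ctss, the lysosomal protease cathepsin S, ranged from 10.7 to 77.7 CPM in members and did not exceed 1.48 CPM in Gfi1 only wells.

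Among the genes of smallest p under the same filter, Degs1, an enzyme of ceramide synthesis, stood at 114, 96.7, 97 and 120 CPM in members and 37.2, 32.7, 49.9 and 59 CPM in Gfi1 only wells (log2 difference 1.29, SE 0.16, edgeR adjusted p = 0.0822). Ifitm3, an antiviral membrane protein, had 261, 153, 147 and 186 CPM against 57.4, 75.4, 51.6 and 53.8 (1.63, SE 0.18, edgeR adjusted p = 0.0822). Ms4a4c lay at 3.42, 1.72, 1.53 and 17.9 CPM in members and at most 0.262 CPM in Gfi1 only wells. In thinned wells these 3 genes were called, with adjusted p of 0.0233, 0.00768 and 0.0267. Il6st, the signalling chain shared by interleukin 6 family receptors, was one of 2 cytokine receptor genes called in thinned wells, with 24.1, 28.8, 20.7 and 63.4 CPM in members and 0.668, 7.40, 4.16 and 0.436 CPM in Gfi1 only wells.

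Of the 16 primary granule genes, 13 lay below the Gfi1 only wells, with a median of -0.51, and 13 had a negative difference at an unadjusted p under 0.05. Cd63, a granule membrane protein, stood at 74.3, 144, 155 and 40.3 CPM in members and 294, 386, 361 and 413 CPM in Gfi1 only wells (log2 difference -1.98, SE 0.35, edgeR adjusted p = 0.0998, in thinned wells 0.0181). Cebpe stood at 33.2, 30.6, 38 and 13.2 CPM against 85.2, 142, 83.7 and 118 (-1.98, SE 0.38, edgeR adjusted p = 0.105, in thinned wells 0.0267). For both genes the groups did not overlap. Elane had 10320, 18880, 15360 and 13860 CPM in members and 24040, 20010, 20210 and 18200 CPM in Gfi1 only wells (-0.51, SE 0.16, edgeR adjusted p = 0.208), where the ranges do overlap. Mpo stood at 23480 to 30730 CPM in members and 30760 to 33800 CPM in Gfi1 only wells, ranges that nearly meet but do not overlap.

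The late granule genes S100a8 and S100a9, which encode the calprotectin subunits, were far lower in members. S100a8 stood at 137, 194, 96.3 and 38.9 CPM in members and 921, 864, 481 and 1232 CPM in Gfi1 only wells (log2 difference -3.00, SE 0.47, edgeR adjusted p = 0.0935, in thinned wells 0.00867). S100a9 stood at 10.1, 2.37, 2.84 and 1.88 CPM against 95.2, 104, 53.5 and 155 (-4.81, SE 0.53, edgeR adjusted p = 0.0822, in thinned wells 0.00768), and 1 well held 45.3% of the members' S100a9 reads. The late granule list was divided: 10 of 15 tested genes lay below, with a median of -1.11 and 5 at an unadjusted p under 0.05, and 5 lay above, 3 of them at that level. Those 3, named after their values were seen, were Mmp8 (neutrophil collagenase), Cd177 and Ifitm6, with log2 differences of 5.57, 2.11 and 3.91 (edgeR adjusted p = 0.143, 0.313 and 0.173). Cd177 stood at 12.9, 28.8, 23.3 and 8.72 CPM in members and 5.10, 6.59, 15.6 and 0.0872 CPM in Gfi1 only wells, and Mmp8 did not exceed 4.12 CPM in members.

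**Figure D2:**
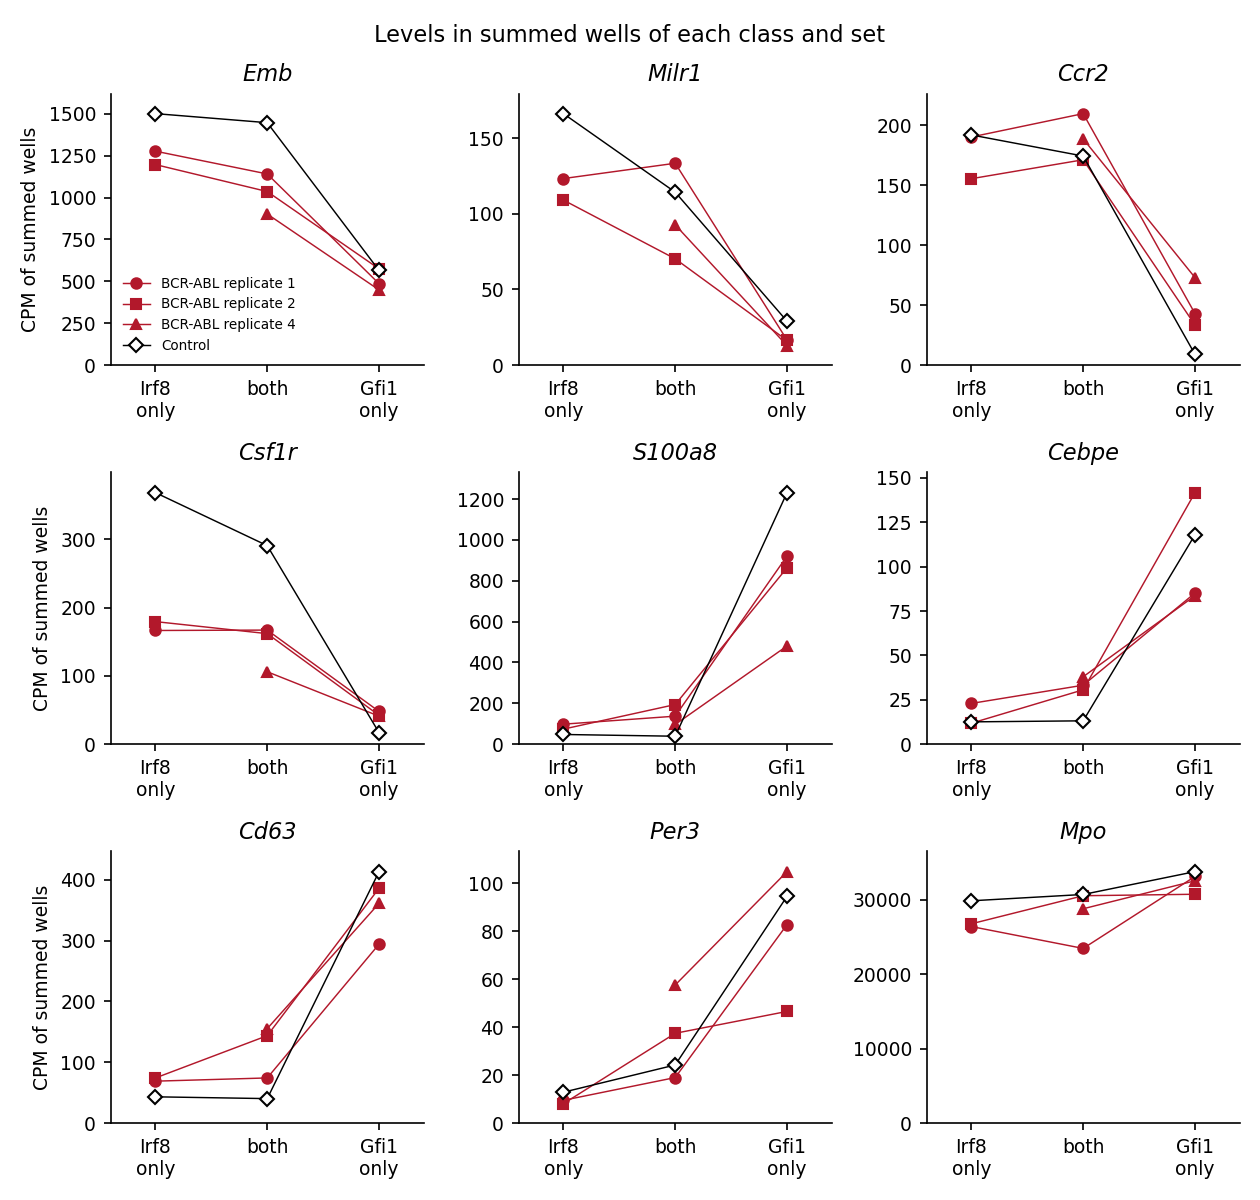
CPM of 9 genes in counts summed over the wells of each class (Irf8 only, both, Gfi1 only), with 1 line per set and linear axes from 0. BCR-ABL replicate 4 has no Irf8 only sum. For Emb, Milr1, Ccr2 and Csf1r the members lie near the Irf8 only wells. For S100a8 and Cebpe they lie far below the Gfi1 only wells, and for Mpo slightly below them.

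Basophil and mast cell genes lay below the Gfi1 only wells in 7 of 7 tested of 12, with a median of -2.27 and 4 at an unadjusted p under 0.05. Cpa3, a mast cell carboxypeptidase, had 0.806, 27.7, 3.68 and 3.96 CPM in members and 198, 487, 115 and 166 CPM in Gfi1 only wells. It reached 20 CPM in 4 of 66 members and 29 of 146 Gfi1 only wells, and 1 well held 79.6% of the members' Cpa3 reads. Hdc, which makes histamine, stood at 102, 193, 205 and 155 CPM against 328, 299, 276 and 514 (log2 difference -1.07, SE 0.31, edgeR adjusted p = 0.182, in thinned wells 0.0392). Siglecf was lower as well, at 12.4, 15.8, 53.8 and 7.56 CPM against 75, 84.6, 85.9 and 146 (-2.48, SE 0.61, edgeR adjusted p = 0.143, in thinned wells 0.0267). The Gfi1 only class holds more wells with Cpa3 and Siglecf at 20 CPM than the members do (89 of 146 wells for Siglecf), and the part of such wells in the differences from that class was not tested.

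Of 38 fate regulators tested, 28 lay below the Gfi1 only wells, 9 of them at an unadjusted p under 0.05, with 1 above at that level. Per3 had a log2 difference of -1.28 (SE 0.32, edgeR adjusted p = 0.146, in thinned wells 0.0278), which places the members between the single classes. Id2, an inhibitor of basic helix-loop-helix factors, stood at 12.1, 4.54, 15.4 and 4.98 CPM in members and 26.5, 23.5, 47.4 and 15.4 CPM in Gfi1 only wells (-1.65, SE 0.37, edgeR adjusted p = 0.123). The stem and early progenitor list had 5 of 17 tested genes above and 12 below, with 2 above and 1 below at an unadjusted p under 0.05, and Cd34 reached 20 CPM in 58 of 66 members and 78 of 146 Gfi1 only wells. The progenitor factor Myb had 307, 441, 604 and 412 CPM against 591, 577, 663 and 940 (-0.67, SE 0.20, edgeR adjusted p = 0.182). Spi1, which encodes the myeloid master factor PU.1, was at 423 CPM ± 19.2 (SD, n = 4) in members and between 347 and 453 CPM in the other classes.

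Further genes called higher than in Gfi1 only wells once wells were thinned came from several processes. Bub1b, a spindle checkpoint kinase, stood at 179, 149, 193 and 147 CPM in members and 95.2, 73.8, 116 and 97 CPM in Gfi1 only wells (log2 difference 0.83, SE 0.12, edgeR adjusted p = 0.089, in thinned wells 0.0267), and 20 of 24 mitosis genes and 21 of 24 replication genes lay above. Psmb8, a subunit of the immunoproteasome, stood at 541, 475, 526 and 548 CPM against 323, 322, 323 and 369. Gbp3, an interferon-induced GTPase, stood at 80.9, 94.7, 87.2 and 120 CPM against 40.7, 22.3, 31.8 and 12.6. The interferon response list as a whole was divided. Of its 22 tested genes 8 lay above the Gfi1 only wells and 14 below, with a median log2 difference of -0.28. At an edgeR unadjusted p under 0.05 there were 4 above and 0 below, and in thinned wells the median was -0.003. For Bub1b, Psmb8 and Gbp3 the groups did not overlap. Ighm, the immunoglobulin heavy chain gene known to be transcribed from its unrearranged locus in early progenitors, stood at 38.4, 115, 50 and 445 CPM in members, 54.4, 224 and 688 CPM in Irf8 only wells and 2.95, 57.3, 16.7 and 7.85 CPM in Gfi1 only wells (members minus Gfi1 only 2.66, SE 0.78, edgeR adjusted p = 0.184).

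No gene was called higher, or called lower, in members than in both single classes. edgeR gave 0 under every setting run, limma voom gave 0 and DESeq2 gave 30. Sec22a, which encodes a protein of vesicle transport, Mansc1 and Smurf2 lay below both classes in every set. Sec22a stood at 22.4, 23.6, 20.7 and 21 CPM in members, 45, 39.6 and 41.5 in Irf8 only wells and 39, 53.3, 39.4 and 56.1 in Gfi1 only wells (edgeR adjusted p = 1 and 0.0935).

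Over genes chosen by their difference between the single classes, the members lay between those classes and nearer to Irf8 only. In thinned wells 457 of 11788 genes (3.88%) differed between Irf8 only and Gfi1 only wells, 234 higher in the former and 223 in the latter. Over these genes the members stood a median of 0.75 of the way from Gfi1 only to Irf8 only (0.78 and 0.70 for the 2 groups of genes), and 417 of 457 were nearer to Irf8 only. The sets differed. For each set and class, log2(CPM + 1) was averaged over single thinned wells and then over genes. For genes higher in Irf8 only wells, members stood 84.2%, 70.5% and 88.1% of the way in BCR-ABL replicates 1 and 2 and Control. For genes higher in Gfi1 only wells they stood at 78.2%, 51.6% and 83.5%, so those of replicate 2 were about midway for the latter. Choosing genes by the gap between the single classes widens that gap, so this is a description. Genes chosen without the Control set (edgeR unadjusted p under 0.01, 368 in each direction) were then read in the Control set. That reading used summed counts without thinning, unlike the shares of each set above. The Control members stood 90.2% of the way for genes higher in Irf8 only wells and 106% for genes higher in Gfi1 only wells. For the latter genes they thus lay past the Irf8 only wells and not between the classes.

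Well by well the members were not uniform. For each well the mean log2(CPM + 1) of the 223 genes was subtracted from that of the 234 genes. On this measure Irf8 only wells had a median of 2.41, Gfi1 only wells -0.82 and members 1.65, with a range of -0.49 to 3.54. A line at 0.79, midway between the 2 single medians, put 81 of 83 Irf8 only wells on one side and 141 of 146 Gfi1 only wells on the other. The genes were chosen for their difference between these same single-class wells, so that separation is set by the choice and supports nothing. Members fell on the Irf8 side in 9 of 11 wells of BCR-ABL replicate 1, 10 of 18 of replicate 2, 7 of 12 of replicate 4 and 23 of 25 of the Control set. In BCR-ABL replicates 2 and 4 the members thus spread over both sides, and 17 of 66 lay on the Gfi1 side in all.

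**Figure D3:**
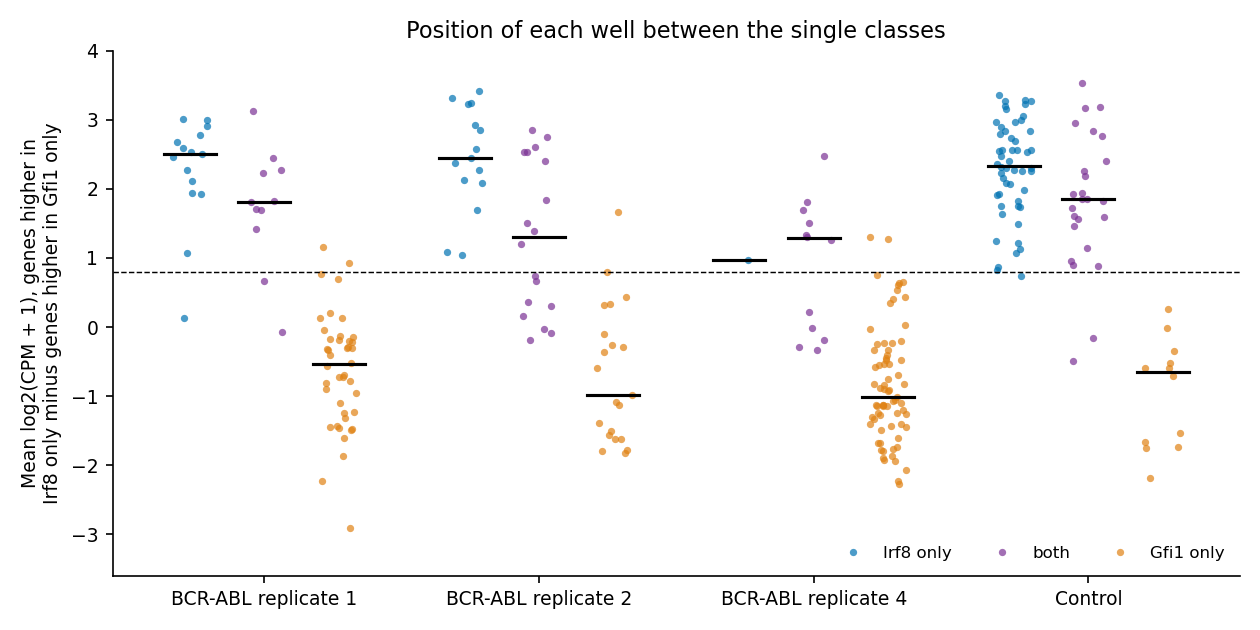
Each point is a well; the y axis is the mean log2(CPM + 1) of 234 genes higher in Irf8 only wells minus that of 223 genes higher in Gfi1 only wells, by set and class. Black bars are medians and the dashed line is the midpoint of the single classes at 0.79. Members lie mostly above it, with 8 of 18 below in BCR-ABL replicate 2 and 5 of 12 in replicate 4.

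Within the members, genes of some lists ran with the balance of the 2 transcripts. For 9625 genes with a read in at least 50% of members, the rank correlation with the log2 ratio of Irf8 to Gfi1 was taken within each set over its 11, 18, 12 or 25 wells and averaged over the 4 sets. Wells of a set share plate and depth range, counts are sparse and no p is given. The middle 50% of these means over all 9625 genes ran from -0.0858 to 0.14. The primary granule genes ran towards Gfi1: 14 of 16 were negative, with a median of -0.37 beside 0.03 over all genes. Monocyte genes ran towards Irf8, with 13 of 16 positive and a median of 0.32, and so did replication genes, with 23 of 24 positive and a median of 0.19. Mitosis genes were near 0, with 20 of 24 negative and a median of -0.06.

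Genes at the 2 ends of this ranking were picked as extremes among 9625, and how far extremes reach by chance was not tested. Txndc5, an endoplasmic reticulum thioredoxin, had the highest mean correlation, 0.57 (0.45, 0.70, 0.40 and 0.74 in the 4 sets). Prkag2, a subunit of the energy sensor AMP kinase, had 0.57 and Ppat, the first enzyme of purine synthesis, 0.56. At the other end stood Rgcc, a regulator of the cell cycle, at -0.53 (-0.62, -0.56, -0.59 and -0.37), Gstm1, a glutathione transferase of the granule list, at -0.52, and Cd63 at -0.52. Txndc5 also differed between classes, at 260, 171, 111 and 308 CPM in members and 33.2, 50, 50.7 and 46.6 CPM in Gfi1 only wells (log2 difference 2.17, SE 0.31, edgeR adjusted p = 0.089, in thinned wells 0.0188). Cebpe had a mean correlation of -0.50, with -0.12 in the Control set, and Emb one of 0.49, with 0.37 to 0.59 in single sets.

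**Figure D4:**
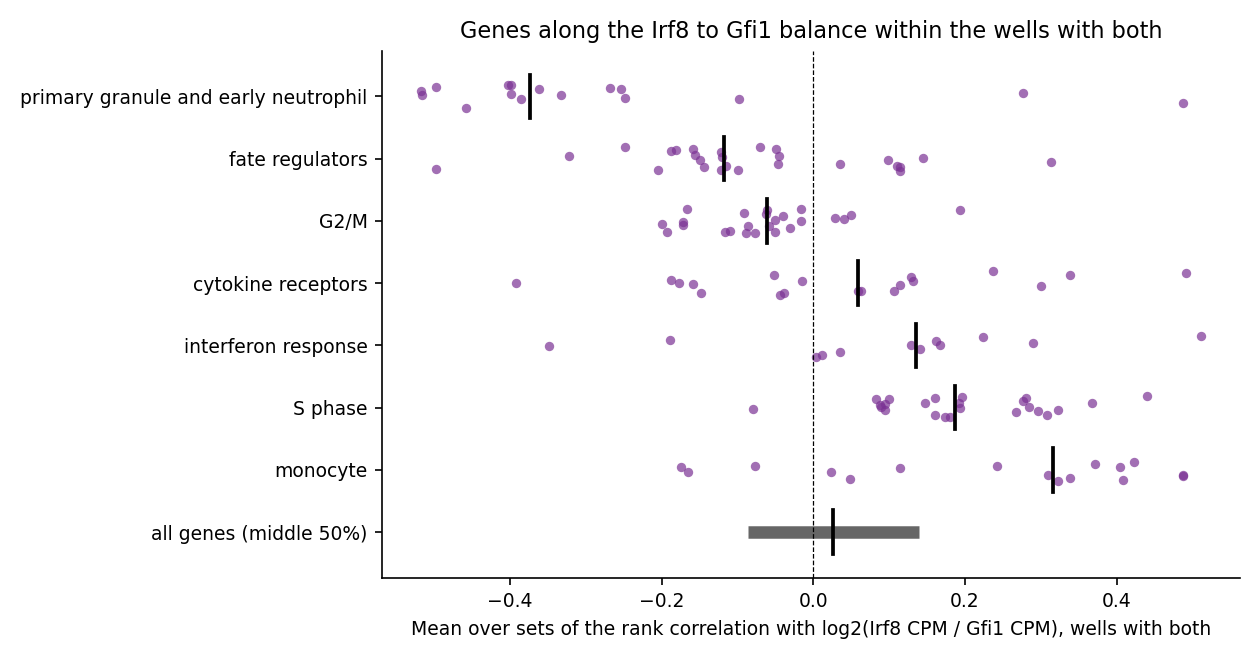
Mean over the 4 sets of each gene's rank correlation with log2(Irf8 CPM / Gfi1 CPM) among the wells with both; points are genes of a list, black bars medians, and the grey bar the middle 50% of all 9625 genes. Monocyte and S phase genes lie to the right, primary granule genes to the left.

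Among the members alone, BCR-ABL and Control differed by no gene that passed the test. Member counts were summed within each set, giving 3 BCR-ABL sums and 1 for Control, whose spread is taken from the other 3. A Control effect and an effect of that 1 set cannot be told apart. Of 16071 genes, edgeR called 0 (0%), and at an unadjusted p under 0.05 there were 440 genes higher (2.74%) and 335 lower (2.08%) in BCR-ABL. limma voom and thinned wells called 0, and DESeq2 called 271, of which 247 were higher. Without the 15 members of low spike-in share edgeR called 0.

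Neutrophil granule genes stood higher in the BCR-ABL members. Of 16 primary granule genes 14 were higher, with a median log2 difference of 0.75 beside 0.05 over all genes, 8 at an unadjusted p under 0.05 and 1 lower at that level. Lcn2, an iron-binding protein of the late granules, stood at 496, 283 and 560 CPM in BCR-ABL members and 39.9 CPM in Control members (log2 difference 3.52, SE 0.51, edgeR unadjusted p = 0.0012, adjusted p = 0.936). Control was also the lowest set for Lcn2 in the single classes, with 384, 210 and 493 CPM in the BCR-ABL sets and 73.9 CPM in Control among Gfi1 only wells, and 468, 252 and 48 CPM among Irf8 only wells of replicates 1 and 2 and Control. Prss57 stood at 675, 593 and 600 CPM against 298 (1.10, SE 0.19, edgeR adjusted p = 0.936), and Cebpe at 33.2, 30.6 and 38 CPM against 13.2 (1.40, SE 0.38, edgeR adjusted p = 0.936). S100a8 was at 137, 194 and 96.3 CPM against 38.9, and the late granule list had 12 of 15 genes higher with a median of 1.48.

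Monocyte genes stood lower in the BCR-ABL members, 20 of 22 with a median of -0.92 and 6 at an unadjusted p under 0.05. Mpeg1, a pore-forming protein of phagocytes, stood at 48.6, 34.9 and 29.2 CPM against 156 in Control (log2 difference -2.02, SE 0.35, edgeR adjusted p = 0.936). Psap, the lysosomal prosaposin gene, stood at 253, 266 and 274 CPM against 516, and Csf1r at 167, 162 and 106 CPM against 291. Interferon response genes were lower in 20 of 23, with a median of -0.90, among them the GTPase gene Irgm1 at 24.1, 28.8 and 38.2 CPM against 90.9. These differences stood beside the lower Irf8 level of the BCR-ABL members given above, whose part in them was not tested. The monocyte list score had a median of 5.30 and 5.03 in Irf8 only wells of replicates 1 and 2, against 6.14 in Control. The monocyte gap was thus shared with Irf8 only wells. Gfi1 only wells had 3.48, 3.30 and 3.44 in the BCR-ABL sets against 3.14, so Control was lowest there.

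Lgals1, Tifa, Sema4a, Tmem40 and Rpl3 were among the genes of smallest p under the filter above and are in no fixed list. Lgals1, which encodes galectin-1, stood at 468, 401 and 303 CPM against 1265 in Control members, and Tifa, an adaptor of NF-kappa B signalling, at 56.9, 59.5 and 61.3 CPM against 140. Sema4a, a membrane semaphorin, stood at 140, 164 and 116 CPM against 18.1 (log2 difference 2.99, SE 0.36, edgeR adjusted p = 0.936), and Tmem40 at 43.7, 30.3 and 49.8 CPM against 1.66. Rpl3, a ribosomal protein gene, stood at 276, 233 and 235 CPM against 69, and in Irf8 only wells at 304 and 250 against 79.7, so this gap was not limited to members. Csf2rb, the common beta chain of the GM-CSF, interleukin 3 and interleukin 5 receptors, stood at 218, 208 and 162 CPM against 85.5 (1.23, SE 0.29, edgeR adjusted p = 0.936). The gate gene Cd34 had 202, 121 and 266 CPM against 504, and Zeb2, a zinc finger factor of monocyte and dendritic cell development, 109, 121 and 85.6 CPM against 211. Xist, the X inactivation transcript of female cells, was read in members of BCR-ABL replicate 1 and Control, at 150.8 and 391.4 CPM, and at 0 in members of replicates 2 and 4, a difference between sets that crosses the conditions and whose part in these results was not tested.

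**Figure D5:**
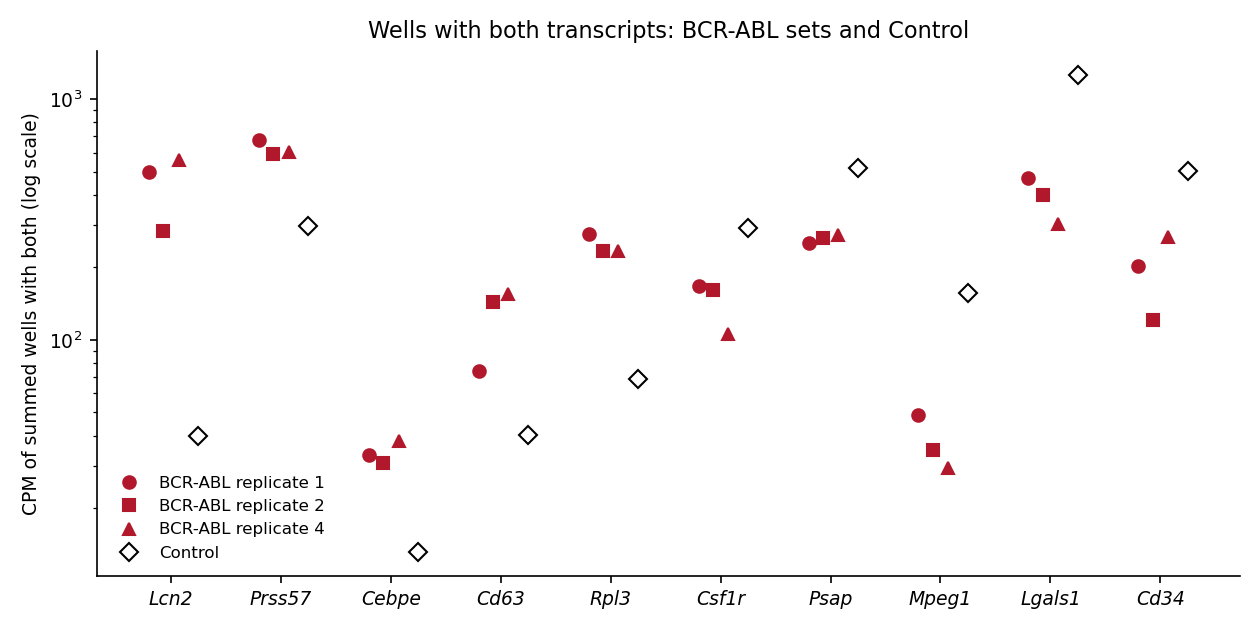
CPM of 10 genes in counts summed over the wells with both transcripts, log axis, 1 filled red symbol per BCR-ABL set and an open symbol for Control. Granule genes, Rpl3 and Lcn2 lie above the Control value in all 3 BCR-ABL sets, and Csf1r, Psap, Mpeg1, Lgals1 and Cd34 below it.

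The test of whether the class differences themselves depend on condition gave 0 genes in either comparison (0% for members against Irf8 only, 0% for members against Gfi1 only, 15580 genes each by edgeR, with 571 and 1431 at an unadjusted p under 0.05). limma voom gave 0 and DESeq2 641 over both. The 21 monocyte genes tested all had a smaller excess over Gfi1 only wells in the BCR-ABL sets than in Control. Their median interaction was -2.09 on the log2 scale, and -1.41 over the 19 tested in thinned wells. Over all 15580 genes 8625 were negative there, with a median of -0.12. Against Irf8 only wells 15 of the 21 monocyte genes were positive, with a median of 0.15. These terms rest on the lone Control set, whose Gfi1 only sum holds 12 wells. Csf1r shows the values behind this: members exceeded Gfi1 only wells by 167 to 47.8, 162 to 42.2 and 106 to 41 CPM in the BCR-ABL sets and by 291 to 16.8 CPM in Control.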

How the data were processed

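The authors deposited raw counts of reads per Ensembl gene for each well, made with GSNAP and HTSeq 0.5.3p3 on mm10, per the submitters' processing notes. Strand setting and annotation: not given in the sources used here, so reads of overlapping or antisense genes may be mixed. Symbols came from GENCODE vM21 (935 identifiers had none). The 92 spike-ins and 5 HTSeq summary lines were left out of totals. Kept wells had 215800 to 4758711 reads on genes (median 1495308).

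The members, gene lists (19) and tests were chosen with earlier results of these data known. Counts were summed per set and class over at least 5 wells and tested with edgeR 4.0.16 (TMM, filterByExpr, quasi-likelihood F test, set as a term) in R 4.3.3. limma 3.58.1 and DESeq2 1.42.0 served as alternatives. The condition fit has 2 residual degrees of freedom. Scripts were tested on simulated counts. Named genes were taken from those past the threshold (up to 12 a direction) or, where fewer than 5 passed, the 5 of smallest p in each direction with 1 sign in every set and a read in at least 25% of the wells of a class; the 4 of smallest p in each list; a fixed set of fate, granule and receptor genes; and the 5 highest and 5 lowest balance correlations. The text names a subset chosen after their values were seen, and Xist, Tifab, Mmp8, Cd177 and the marker genes of other cells lie outside the rule.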

Additional observations from a re-analysis of the deposited data

Results flagged for a closer look

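By Dixon's criterion at 95%, 11 values stood apart as the highest or lowest of a group of 4 sums. Chance marks about 1 group in 20, but the number of groups examined is not given here, so 11 cannot be compared with chance. Some genes were named for a difference between BCR-ABL and Control members, a choice that favours Control values standing apart. Among member sums the Control value was the one apart for Ubn1 (120.5 CPM), Ms4a4c (17.86), Mpeg1 (156.2), Psap (515.7) and Tifa (139.9). BCR-ABL replicate 2 stood apart for Myc (665 CPM) and for Cpa3 (27.74 CPM, of which 1 well held most), and BCR-ABL replicate 1 for S100a9 (10.14 CPM). Among Gfi1 only sums the Control value stood apart for Rpl3 (92.69 CPM), Siglecf (146.1) and Psmb8 (369.4). Control is also the lone set of its condition and its Gfi1 only sum holds 12 wells.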

How the results depend on the processing

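Of 78 results, 1031 values under alternatives kept direction and side of the threshold, 112 gained a call, most often with DESeq2, and 11 lost one. For members against Gfi1 only wells, the 2 calls became 5 with no filter on low counts, 1376 with DESeq2, 93 with limma voom, 248 in thinned wells, 4 at a level of 50 CPM, 0 at 100 CPM, 20 with no replicate block and 1 without members of low spike-in share, and leaving out each set in turn gave 0 to 0. DESeq2 gave 93 calls against Irf8 only wells, 271 between conditions, 641 for class by condition and 30 for members beyond both single classes; all other settings gave 0 for these 4 counts. With no replicate block, the members against Irf8 only count stayed 0. At 100 CPM the difference from Irf8 only wells for Zwilch turned to -0.005 and that from Gfi1 only wells for Spi1 to -0.042. The cause was not tested. Leaving out the members of low spike-in share and leaving out the Gfi1 only well with 19454 genes (3 calls against Gfi1 only) were chosen after the data were seen. The condition fit at 100 CPM, and the condition and class by condition fits without Control, gave no test. The limits are the 4 sets, the lone Control set, the absence of molecular identifiers and sums in which single wells can hold most reads of a rare transcript.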
